A study of Rattus norvegicus with 12 samples.

Results

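The genes described here are 46 genes of the cell cycle, listed by symbol: the cyclins and their kinases, the enzymes of DNA synthesis, the proteins of mitosis, the inhibitors that stop the cycle, and Myc. On the Affymetrix RAE230-A array, 42 of the 46 had a probe set annotated with that symbol alone, and where a gene had several, the probe set with the highest mean over the 12 arrays was used. The probe sets listed under 1 symbol covered 10411 genes in all, and 15866 probe sets other than array controls were tested. Cdk2, Ccna2 and Btg2 were not analysed here, since no probe set is listed for them alone, and the probe set of Rrm2 was left out because it is shared with Rrm2l1. The rule names the genes by symbol and uses no measured value, but the list was drawn up with earlier results of these data known.

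RNA of whole pancreas was compared in 4 groups of male Wistar rats: diabetic treated (DT), diabetic untreated (DU), healthy treated (HT) and healthy untreated (HU). Diabetes was induced with streptozotocin (STZ), a toxin of beta cells, injected intraperitoneally at 70 mg/kg. Sodium tungstate was given in the drinking water, per the labels at 0.7 g/L in the first week and at 2 g/L for the next 4 to 5 weeks. The methods give 2 mg/ml for 5 weeks. By the labels, the diabetic rats were treated until glycemia had come close to normal. The paper, however, reports that tungstate restored glycemia only in part. Untreated rats were kept for 5 to 6 weeks per the labels, on deionized water per the methods. Each array held RNA of 3 rats pooled in equal parts, with 3 pools and so 9 rats in each group, and p-values therefore measure the spread between pools.

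The values are log2 signals, so a difference of 1 is a 2-fold difference. Array medians lay between 6.63 and 6.70, and arrays correlated with each other at 0.976 to 0.995. The tissue had the signal of exocrine pancreas on every array, with summed linear signals of 13 measured acinar markers between 209955 and 220558 in DT, 199982 and 209053 in DU, 213149 and 218701 in HT, and 210839 and 214427 in HU. These sums hide the pancreatic amylase Amy2a3, which had log2 signals of 13.17, 12.98 and 12.70 in DT and 8.59, 6.45 and 8.78 in DU, with 12.80 to 13.20 in HT and HU (log2 difference 5.01 in DT vs. DU, adjusted p = 2.02e-05). The summed signal of 6 beta cell markers was 4213, 3484 and 8674 in DT1 to DT3 and 2898, 3170 and 2374 in DU1 to DU3, while all HT and HU arrays lay between 24408 and 28249. In RNA of a whole organ, fewer cells of a type and less RNA per cell cannot be told apart. In stained sections, the paper reports a smaller insulin area in DU than in HU, and a larger one in DT than in DU. By the array records, DT1, DT2, DU1, DU2 and HU3 were run on chip lot 1. HT1, HT2, HU1 and HU2 were on chip lot 2, and DT3, DU3 and HT3 on chip lot 3. No scan day held HU arrays together with DT or DU arrays. A fit with scan day as a block therefore links HU to the diabetic groups only through HT arrays.

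A cell enters the cycle when D-type cyclins, whose RNA follows growth signals, bind Cdk4 and release the E2F transcription factors from the retinoblastoma protein. E2F then drives the genes of DNA licensing and synthesis, and later the genes of mitosis are driven together. CDK inhibitors hold the kinases back. In the adult pancreas few cells divide, and in mice cyclin D2 is needed for beta cells to multiply after birth. The question asked of these genes was whether tungstate raised the RNA of proliferation.

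Many promoters of cell cycle genes are known to carry sequence elements bound by the factors that time the cycle. A RefSeq promoter (rat assembly GRCr8, 250 bases before to 50 bases after the start) was on hand for 35 of the 46 genes, and was searched on both strands for the CCAAT box (CCAAT or ATTGG), the CHR element of mitotic genes (TTTGAA or TTCAAA) and an E2F-type element (TTCCCGCC, GGCGGGAA, TTTGGCGC or GCGCCAAA). The CCAAT box and the CHR element can share a base, as in TTTGAATTGG, and such a stretch was counted under both. The CHR element was in 11 of 15 promoters of the G2 and mitosis genes (73.3%), against 18.1% of all 27457 promoters. The E2F-type element was in 5 of 9 promoters of the DNA synthesis genes (55.6%), against 2.52% of all promoters. The CCAAT box was in 24 of the 35 (68.6%), against 37.7% of all promoters. The CHR or the E2F-type element was in 19 of the 35 (54.3%), against 20.3% of all promoters, and in none of the 4 promoters each of the G1 genes and of the growth arrest genes. A match is a description of the letters and not a binding site. Shown are the promoters of Cks1b, a mitotic gene that passed the test in DT vs. HU, of Cdk1, the kinase of mitosis, and of Mcm5, a subunit of the replicative helicase, at chr2:177135284-177135583 (minus strand), chr20:19265043-19265342 (plus strand) and chr19:13488563-13488862 (plus strand). Capitals mark the elements searched for.
Cks1b: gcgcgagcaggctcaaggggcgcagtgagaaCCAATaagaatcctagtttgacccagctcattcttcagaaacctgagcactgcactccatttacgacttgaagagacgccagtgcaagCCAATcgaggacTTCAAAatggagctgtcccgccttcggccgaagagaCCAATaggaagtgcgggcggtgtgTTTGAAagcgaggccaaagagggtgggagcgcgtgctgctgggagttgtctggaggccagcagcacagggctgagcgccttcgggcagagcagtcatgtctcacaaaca
Cdk1: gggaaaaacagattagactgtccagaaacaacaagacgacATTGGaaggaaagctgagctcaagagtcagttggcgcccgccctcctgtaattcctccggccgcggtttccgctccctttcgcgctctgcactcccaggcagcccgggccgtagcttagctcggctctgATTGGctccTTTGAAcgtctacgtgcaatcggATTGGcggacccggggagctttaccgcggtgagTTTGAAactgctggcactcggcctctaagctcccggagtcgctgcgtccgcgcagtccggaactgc
Mcm5: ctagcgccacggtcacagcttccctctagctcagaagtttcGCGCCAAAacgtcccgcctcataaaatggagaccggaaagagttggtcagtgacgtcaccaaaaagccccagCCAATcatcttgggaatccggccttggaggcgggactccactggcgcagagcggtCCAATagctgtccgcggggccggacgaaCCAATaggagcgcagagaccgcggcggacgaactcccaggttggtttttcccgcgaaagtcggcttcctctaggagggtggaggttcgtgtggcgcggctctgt
Cks1b and Cdk1 thus carry 2 CHR elements and 3 CCAAT boxes each, and Mcm5 carries 1 E2F-type element and 3 CCAAT boxes.

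In diabetic rats tungstate was not accompanied by a rise in proliferation RNA of the whole pancreas that the test could detect. The paper reports that tungstate raised beta cell replication in diabetic rats, from Pcna staining of insulin-positive cells. That is a count of stained protein in beta cells alone, which RNA of the whole organ does not resolve. None of the 42 genes was called higher and none lower in DT vs. DU by limma with Benjamini-Hochberg adjustment over all 15866 probe sets (adjusted p under 0.05), where 1.12% of all probe sets were called, 0.655% higher and 0.46% lower. By unadjusted p under 0.05, 0 genes were higher and 3 were lower (Ccnd2, Mad2l1 and Myc), against 9.89% of all probe sets in either direction, 5.29% higher and 4.59% lower. By the study's own criterion, a B-statistic above 0, the count was also 0, against 1.05% of all probe sets. Of the 42 genes, 21 had a positive and 21 a negative log2 fold change, with a median of 0.00 for these genes and 0.00 for all probe sets. The quartiles of the genes were -0.06 and 0.06, and those of all probe sets -0.08 and 0.09.

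The intervals set a limit on what could have been missed. The 95% interval of the fold change (not adjusted for the number of genes) stayed under a 1.5-fold rise for 42 of 42 genes and under a 1.25-fold rise for 35 of 42. The highest upper bound was 1.44-fold, for Cks1b. The values of DT lay above all values of DU for Cdc25b, Birc5 and Aurka, and below them for Ccnd2 and Mad2l1, while 13.9% of all probe sets had groups that did not overlap, 7.58% higher and 6.28% lower in DT. These limits hold for RNA of the whole organ, of which islets are a small part. They bound the measured signal, and differences are compressed on dim probe sets. Of the 42 genes, 15 lay under the 40th percentile of signal and 6 under the 10th, so a larger rise in their RNA could have been missed.

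**Figure D1:**
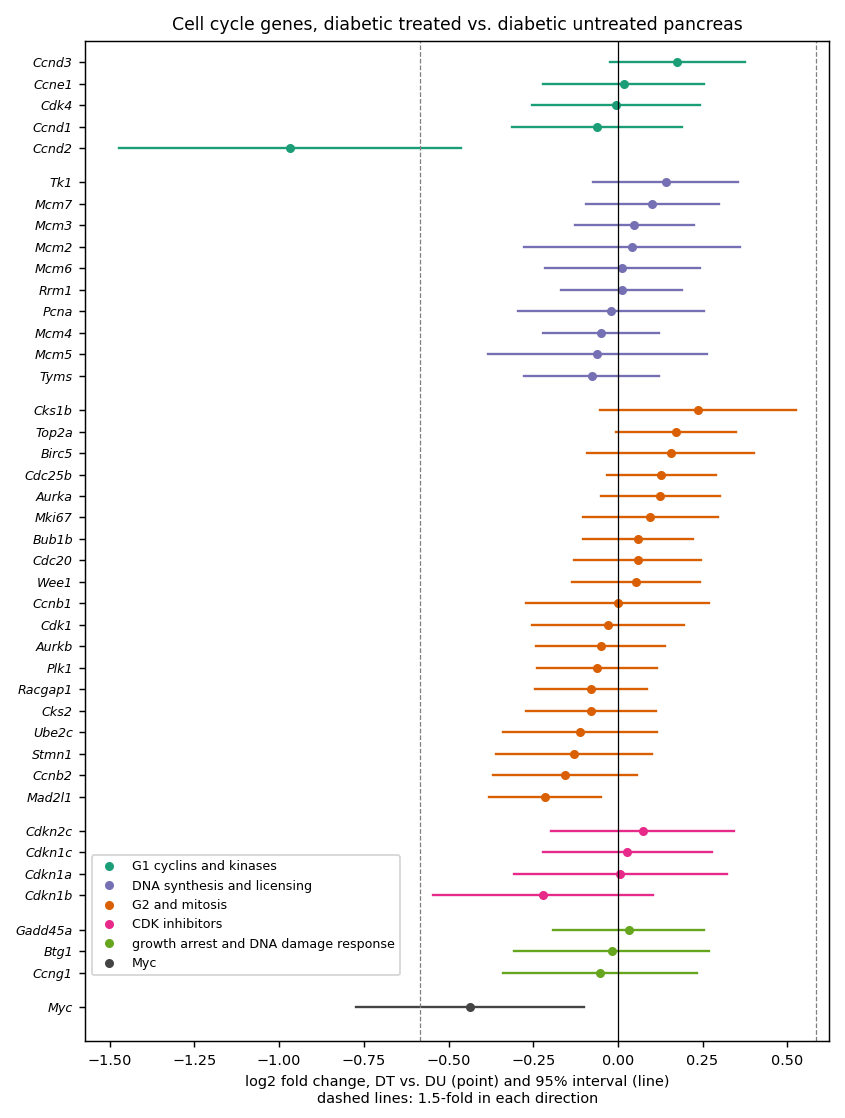
Log2 fold change in DT vs. DU (horizontal axis, points) with its 95% interval (lines) for the 42 measured cell cycle genes, listed by role and coloured by role, n = 3 pools per group. Dashed lines mark a 1.5-fold difference in each direction: no interval reaches the upper line, and the point of Ccnd2, at -0.97, is the only point beyond the lower line.

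The usual markers of dividing cells Mki67, Pcna, Cdk1 and Top2a were not called in any comparison. Mki67, the nuclear antigen used to count cycling cells, had log2 signals of 3.78, 3.90 and 4.08 in DT and 3.83, 3.77 and 3.87 in DU, with 3.93, 3.71 and 3.96 in HT and 3.82, 3.87 and 3.84 in HU. These values are near the lowest of the array, where the lowest value of any probe set was 3.44, so a small change in Mki67 could not have been read. Its change in DT vs. DU was 0.10 ± 0.09 (SE), with an interval of 0.930 to 1.23-fold. Pcna, the clamp that holds DNA polymerase on its template, had 7.34, 7.34 and 7.81 in DT and 7.58, 7.50 and 7.47 in DU, with 7.58, 7.40 and 7.31 in HT and 7.52, 7.31 and 7.63 in HU. The DT values of Pcna spanned those of DU, and the interval of the fold change was 0.815 to 1.19. Cdk1, the kinase that starts mitosis, had 6.07, 6.18 and 6.03 in DT and 6.03, 5.99 and 6.35 in DU, with 6.04, 6.07 and 6.03 in HT and 6.22, 6.00 and 5.94 in HU. Its groups overlapped as well, with an interval of 0.839 to 1.14-fold in DT vs. DU. Top2a, the topoisomerase that untangles sister chromatids, had 6.66, 6.96 and 6.77 in DT and 6.58, 6.63 and 6.67 in DU, with 6.75, 6.81 and 6.74 in HT and 6.77, 6.84 and 6.79 in HU. Its difference of 0.17 ± 0.08 (SE) in DT vs. DU did not pass the test (adjusted p = 0.529), and its DU pools lay below all HU pools (-0.17, adjusted p = 0.261).

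**Figure D2:**
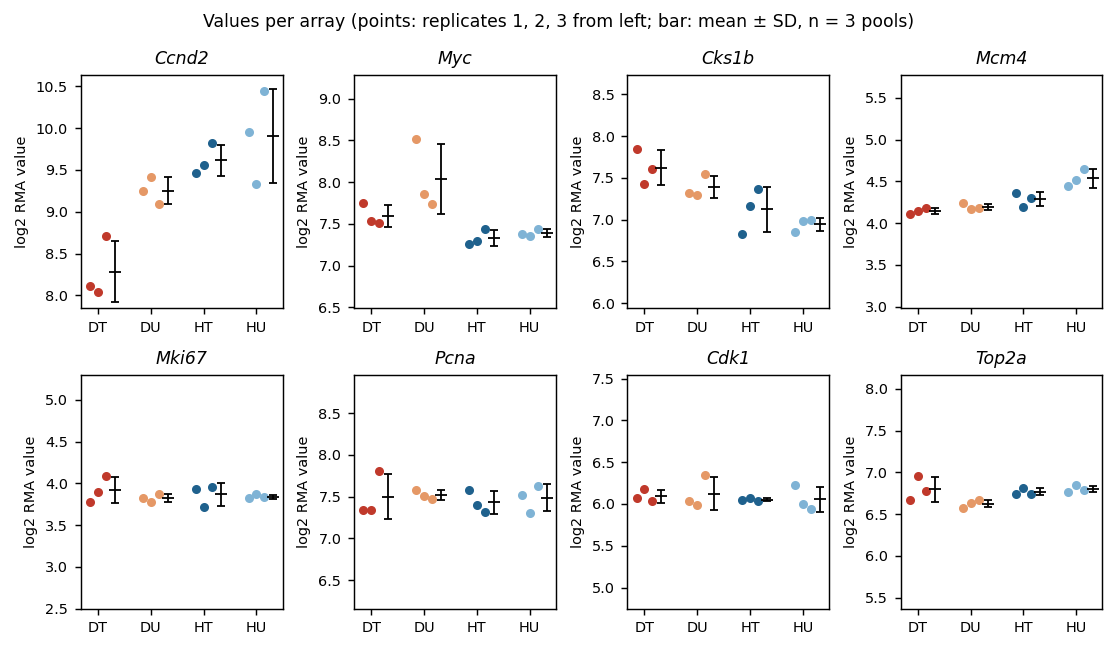
Log2 RMA value (vertical axis) of 8 cell cycle genes in each pool of the DT, DU, HT and HU groups (points, replicates 1 to 3 from left), with the mean and SD (bars, n = 3 pools). Ccnd2 is lowest in DT and Myc highest on average in DU, while the 4 groups of Mki67, Pcna and Cdk1 overlap.

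Among the G1 cyclins and kinases, 5 of 6 were measured and cyclin D2 stood apart. Ccnd2 had log2 signals of 8.11, 8.04 and 8.71 in DT and 9.25, 9.42 and 9.10 in DU, with 9.47, 9.56 and 9.82 in HT and 9.95, 9.33 and 10.45 in HU. All DT pools lay below all pools of the other groups. Against DU, the DT pools had 1.96-fold less Ccnd2 (log2 difference -0.97 ± 0.23 SE, interval of the ratio 0.360 to 0.725), which did not pass the test (limma adjusted p = 0.0784). Against HU it fell 3.08-fold in DT (-1.62 ± 0.23, adjusted p = 0.00490). In DU vs. HU the difference was -0.66 (adjusted p = 0.142), which passed without HU2 (-0.95, adjusted p = 0.0313), and in HT vs. HU it was -0.29 (adjusted p = 0.880). The tungstate effect on Ccnd2 differed by -0.68 between diabetic and healthy rats, with an interval of the ratio that included 1 (0.382 to 1.03, adjusted p = 0.603).

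Whether Ccnd2 passed in DT vs. DU turned on the settings. It passed with quantile normalization (adjusted p = 0.0316), without dim probe sets (0.0475), with scan day (0.0365) or chip lot (0.0408) as a block, without DT3 (-1.18, adjusted p = 0.0270) and without the 3 arrays of chip lot 3 (-1.26, adjusted p = 0.0411). The scan day estimate (-1.17) rests on DT1 and DT2 against DU1. Ccnd2 did not pass with median centring, in a fit on DT and DU alone, with limma's trend and robust options, or with the mean of each gene's probe sets. Its adjusted p in these settings was at most 0.0991. With each array left out in turn its adjusted p ran between 0.0270 and 0.292, and it passed only without DT3. Within chip lot 1, DT1 and DT2 lay 1.26 log2 units below DU1 and DU2 on average, and within chip lot 3, DT3 lay 0.39 below DU3. In DT vs. HU the call held without each array in turn (adjusted p 0.00117 to 0.0280) and was lost in a fit on those groups alone (0.0633) and with scan day as a block (-2.05, 0.175).

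Markers of stroma and leukocytes were low in the same DT pools as Ccnd2. The summed linear signal of 8 stellate cell and fibroblast markers was 1592, 1698 and 2564 in DT1 to DT3 and 2908, 2832 and 2357 in DU1 to DU3, with 2856, 2784 and 2203 in HT and 2756, 2516 and 3557 in HU. DT3, the DT pool with the most Ccnd2, had the highest such sum in DT. HU3, the HU pool with the most Ccnd2, had the highest in HU. In the other groups the order differed: HT3 had the most Ccnd2 and the lowest sum in HT. In DU, DU2 had the most Ccnd2 and DU1 the highest sum. In DT vs. DU all 8 of these markers had negative log2 fold changes, with a median of -0.42, and 0 were called by limma (3 lower by unadjusted p under 0.05). In DT vs. HU, where Ccnd2 was called, 7 of the 8 were negative, with a median of -0.53, and 2 fell: Col3a1 (-1.43, adjusted p = 0.0188) and Col1a2 (-0.96, adjusted p = 0.0385), chains of fibrillar collagen. The sum of 11 measured leukocyte markers was 1875, 2434 and 4627 in DT and 4672, 4656 and 3130 in DU, with 4790, 3517 and 3333 in HT and 3741, 2585 and 5616 in HU. Of these 11 markers, 9 were negative in DT vs. DU, with a median of -0.12, and 10 in DT vs. HU, with a median of -0.21, and limma called 0 in either (by unadjusted p under 0.05, 1 lower in DT vs. DU, and 1 higher and 2 lower in DT vs. HU). Such low sums were not particular to these lists. The sums of endothelium, adipocyte, erythroid and other islet markers were also lower in DT1 and DT2 than in DU1 and DU2. Those of acinar and beta cell markers were higher, and those of duct markers overlapped. The endothelium sum, for example, was 278, 283 and 349 in DT and 327, 312 and 314 in DU. The part of any of these cells in the difference of Ccnd2 was not tested.

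**Figure D3:**
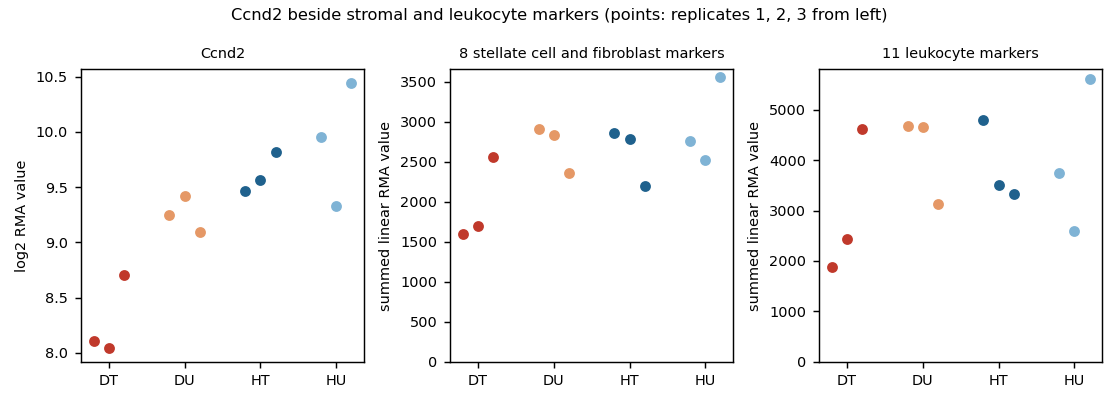
Log2 RMA value of Ccnd2 (left) and summed linear RMA values of 8 stellate cell and fibroblast markers (middle) and of 11 leukocyte markers (right) in each pool of DT, DU, HT and HU (points, replicates 1 to 3 from left). DT1 and DT2 have the lowest values in all 3 panels, and DT3 lies within the range of the other groups in both marker sums but below them in Ccnd2.

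None of the other G1 genes was called in DT vs. DU. Ccnd3, another D-type cyclin, had 8.72, 8.86 and 8.78 in DT and 8.65, 8.44 and 8.75 in DU, with 8.80, 8.97 and 8.85 in HT and 8.80, 8.68 and 8.84 in HU (DT vs. DU 0.18, adjusted p = 0.583). Ccnd1, the D-type cyclin induced by mitogens in many cells, had 6.89, 7.09 and 7.25 in DT and 7.10, 7.30 and 7.02 in DU, with 7.52, 7.37 and 7.36 in HT and 7.35, 7.37 and 7.68 in HU. All DT and DU pools of Ccnd1 lay below all HU pools, but neither DT vs. HU (-0.39, adjusted p = 0.123) nor DU vs. HU (-0.33, adjusted p = 0.140) was called. In DT vs. DU this probe set gave -0.06, and the other 2 probe sets of Ccnd1 gave -0.19 (adjusted p = 0.698) and -0.35 (adjusted p = 0.547). A mean over the 3 probe sets of Ccnd1 gave -0.57 in DT vs. HU and passed (adjusted p = 0.0258). Cdk4, the kinase of the D-type cyclins, and Ccne1, the cyclin that opens S phase, differed by -0.01 and 0.02 in DT vs. DU.

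Of the DNA synthesis and licensing genes, 10 of 11 were measured and none was called in DT vs. DU, where they ranged from -0.08 to 0.14. Tk1, which salvages thymidine, had 7.73, 7.83 and 7.48 in DT and 7.45, 7.51 and 7.65 in DU, with 7.67, 7.67 and 7.58 in HT and 7.69, 7.75 and 7.52 in HU (DT vs. DU 0.14, adjusted p = 0.738). Mcm7, a helicase subunit, had 7.92, 8.13 and 7.84 in DT and 7.86, 7.95 and 7.77 in DU, with 7.94, 7.89 and 7.96 in HT and 7.89, 7.98 and 8.10 in HU (0.10, adjusted p = 0.814). Tyms, which makes thymidylate, had 5.35, 5.42 and 5.39 in DT and 5.55, 5.40 and 5.44 in DU, with 5.62, 5.27 and 5.55 in HT and 5.43, 5.39 and 5.29 in HU (-0.08, adjusted p = 0.875). For each of these genes DT and DU overlapped. Mcm2, Mcm3, Mcm5 and Mcm6, further helicase subunits, and Rrm1, the large subunit of ribonucleotide reductase, lay between -0.06 and 0.05 in DT vs. DU.

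Mcm4, another helicase subunit, was lower in diabetic rats whether treated or not. Its log2 signals were 4.10, 4.15 and 4.18 in DT and 4.24, 4.17 and 4.18 in DU, with 4.36, 4.19 and 4.30 in HT and 4.44, 4.51 and 4.65 in HU. All HU pools lay above all pools of the other groups. Mcm4 fell 1.27-fold in DU vs. HU (-0.34 ± 0.08 SE, adjusted p = 0.0340) and 1.31-fold in DT vs. HU (-0.39 ± 0.08, adjusted p = 0.0317). Its difference in HT vs. HU was -0.25 (unadjusted p = 0.00746, adjusted p = 0.871). The probe set is dim, so the values carry little signal above the floor, and the DU vs. HU call was lost when any 1 of the 6 arrays compared was left out (adjusted p 0.0510 to 0.114). The DT vs. HU call held without only 1 of the 6 (0.0383 to 0.102), and with scan day as a block neither passed (0.679 for DU vs. HU, 0.599 for DT vs. HU). Both calls were also lost with chip lot as a block (0.0630 for DU vs. HU, 0.0749 for DT vs. HU). The same held in fits on the compared groups alone (0.0514 for DU vs. HU, 0.116 for DT vs. HU). By B-statistic above 0, Mcm4 was not called in DU vs. HU.

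Of the 20 genes of G2 and mitosis, 19 were measured, and in DT vs. DU 9 were positive, 10 negative and none called. Mad2l1, a spindle checkpoint protein, had 6.37, 6.48 and 6.37 in DT and 6.52, 6.72 and 6.63 in DU, with 6.58, 6.52 and 6.60 in HT and 6.55, 6.65 and 6.59 in HU. Its DT pools lay below all pools of the other groups, with a difference in DT vs. DU of -0.22 (unadjusted p = 0.0144, adjusted p = 0.322). Birc5, a protein of the chromosomal passenger complex, Aurka, a spindle kinase, and Cdc25b, a phosphatase that activates Cdk1, were 0.16, 0.13 and 0.13 higher in DT than in DU without passing the test (adjusted p = 0.755, 0.697 and 0.645). Those not yet described, namely the B-type cyclins Ccnb1 and Ccnb2, the kinases Plk1, Aurkb, Bub1b and Wee1, the ubiquitin ligase factors Cdc20 and Ube2c, and Racgap1, Stmn1 and Cks2, lay between -0.16 and 0.06.

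Cks1b, a small subunit of cyclin-dependent kinases that also helps to degrade the inhibitor Cdkn1b, carried the highest point estimate in DT vs. DU. It had 7.84, 7.43 and 7.60 in DT and 7.32, 7.30 and 7.54 in DU, with 6.83, 7.17 and 7.37 in HT and 6.85, 6.98 and 6.99 in HU. All DT and DU pools lay above all HU pools. Cks1b rose 1.60-fold in DT vs. HU (0.68 ± 0.13 SE, adjusted p = 0.0280), while DU vs. HU was 0.45 (adjusted p = 0.0889, and 0.0318 in a fit on those groups alone) and DT vs. DU 0.24 (adjusted p = 0.635). A second probe set of Cks1b did not show it, with 6.22, 5.95 and 5.84 in DT and 6.23, 6.10 and 6.13 in HU (-0.15, adjusted p = 0.486), and a mean over both probe sets gave 0.27 (adjusted p = 0.196). The DT vs. HU call was also lost without DT1 (0.0966), HU1 (0.111), HU2 (0.0856) or HU3 (0.0682), in a fit on those groups alone (0.0633), and with chip lot (0.191) or scan day (0.904) as a block.

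All 4 CDK inhibitors were measured and none was called in any comparison. Cdkn1b, which restrains the kinases of G1 and S phase, had 7.41, 7.05 and 7.43 in DT and 7.65, 7.54 and 7.36 in DU, with 7.30, 7.29 and 7.14 in HT and 7.22, 7.26 and 7.82 in HU (DT vs. DU -0.22, adjusted p = 0.724). Cdkn2c, an inhibitor of the kinases of D-type cyclins, had 8.59, 8.56 and 8.51 in DT and 8.42, 8.58 and 8.43 in DU, with 8.90, 8.64 and 8.37 in HT and 8.87, 8.61 and 8.97 in HU. Its DT and DU pools lay below all HU pools (DT vs. HU -0.26, adjusted p = 0.318, and DU vs. HU -0.34, adjusted p = 0.160). Cdkn1c, an imprinted inhibitor, had 6.06, 6.47 and 6.27 in DT and 6.23, 6.28 and 6.22 in DU, with 6.67, 6.36 and 6.26 in HT and 6.35, 6.31 and 6.22 in HU (DT vs. DU 0.03). Cdkn1a, the inhibitor induced by p53, differed by 0.01 in DT vs. DU. Second, dimmer probe sets of 2 inhibitors differed from those used. That of Cdkn1a had means of 5.42 in DT, 5.67 in DU and 5.75 in HU. That of Cdkn1b had 5.87 in DT, 5.72 in DU and 6.11 in HU, so in DT vs. DU it went the other way.

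Of the genes of growth arrest and DNA damage, 3 of 4 were measured. Ccng1, a p53 target, had 9.33, 9.44 and 9.65 in DT and 9.68, 9.55 and 9.34 in DU, with 9.50, 9.50 and 9.16 in HT and 9.66, 9.52 and 9.93 in HU. HT pools lay below HU pools (-0.32, unadjusted p = 0.0314, adjusted p = 0.871), and DT and DU overlapped (-0.05). Gadd45a, induced by DNA damage, had 5.96, 5.89 and 5.82 in DT and 5.74, 5.88 and 5.95 in DU, with 5.76, 5.75 and 5.90 in HT and 5.96, 5.55 and 5.81 in HU (DT vs. DU 0.03). Btg1, a growth-restraining protein, had 10.99, 10.76 and 10.86 in DT and 11.02, 10.93 and 10.71 in DU, with 11.01, 11.03 and 10.90 in HT and 11.24, 10.96 and 11.58 in HU (DT vs. HU -0.39, adjusted p = 0.171). HU3 was the highest pool for both Ccng1 and Btg1, as it was for Ccnd2 and both marker sums.

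Myc, the transcription factor that drives cell growth and entry into the cycle, was higher in untreated diabetic rats. It had 7.75, 7.53 and 7.51 in DT and 8.51, 7.86 and 7.74 in DU, with 7.26, 7.30 and 7.43 in HT and 7.38, 7.36 and 7.44 in HU. Myc rose 1.56-fold in DU vs. HU (0.64 ± 0.16 SE, interval 1.24 to 1.97-fold, adjusted p = 0.0408). In DT it lay between the DU and HU means, with a difference of -0.44 ± 0.16 in DT vs. DU that did not pass the test (adjusted p = 0.323) and of 0.21 in DT vs. HU (adjusted p = 0.531). The DU vs. HU call held without DU3 (adjusted p = 0.0211) and was lost without DU1 (0.40, adjusted p = 0.0759), DU2 (0.0601), HU1 (0.121), HU2 (0.113) or HU3 (0.0815), and its B-statistic was -0.95. That call was also lost with chip lot as a block (0.57, limma adjusted p = 0.198) and in a fit on DU and HU alone (adjusted p = 0.0792). With scan day as a block, which rests on DT1 and DT2 against DU1, the highest Myc pool, the difference in DT vs. DU was -0.87 and passed (adjusted p = 0.0113), while DU vs. HU did not (adjusted p = 0.347).

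In healthy rats, too, the test called none of the 42 genes with tungstate, in a comparison with almost no calls on the whole array. In HT vs. HU, limma called 0 higher and 0 lower at adjusted p under 0.05, where 0.0063% of all probe sets were called. By unadjusted p under 0.05, 1 gene was higher (Aurkb, a mitotic kinase, 0.20) and 2 were lower (Mcm4 and Ccng1), against 5.41% of all probe sets, 2.65% higher and 2.77% lower, and 0 had a B-statistic above 0. The median was -0.01, and the upper bound of the interval was under a 1.5-fold rise for 42 of 42 genes, with a highest bound of 1.38-fold. Aurkb had 4.86, 4.95 and 5.12 in HT and 4.81, 4.80 and 4.70 in HU, so all HT pools lay above all HU pools, at dim values. The groups did not overlap for 4 genes higher and 2 lower in HT, against 11.6% of all probe sets, 5.74% higher and 5.83% lower.

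The effect of tungstate was not shown to differ between diabetic and healthy rats for any of these genes. In the interaction, limma called 0 of 42 at adjusted p under 0.05 (0.422% of all probe sets were called, 0.271% higher and 0.151% lower), the lowest adjusted p being 0.466, and 0 had a B-statistic above 0, against 0.58% of all probe sets. By limma's unadjusted p under 0.05 only Ccnb2 was counted, 1 gene of the 42 and lower (difference -0.35, adjusted p = 0.466), against 8.75% of all probe sets, 4.97% higher and 3.78% lower. Ccnb2 was -0.16 in DT vs. DU and 0.20 in HT vs. HU. The intervals are wider here: their upper bound was under 1.5-fold for 38 of 42 genes.

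**Figure D4:**
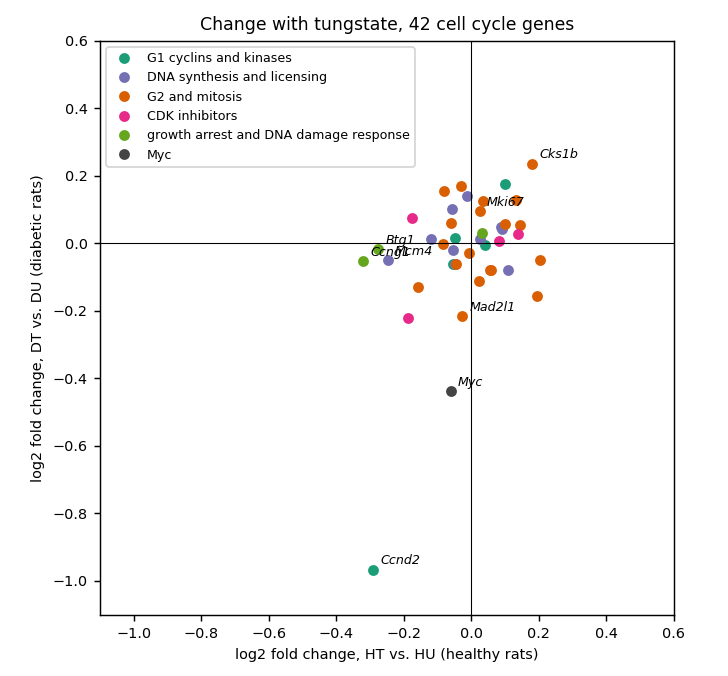
Log2 fold change with tungstate in diabetic rats (DT vs. DU, vertical axis) against that in healthy rats (HT vs. HU, horizontal axis) for the 42 measured cell cycle genes (points, coloured by role, n = 3 pools per group). Ccnd2 (-0.97) and Myc (-0.44) lie lowest, Cks1b highest (0.24), and Ccng1 farthest to the left (-0.32).

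The remaining comparisons set the diabetic groups against healthy untreated rats. In DU vs. HU 1 gene rose (Myc) and 1 fell (Mcm4) at adjusted p under 0.05, where 3.2% of all probe sets were called, 1.47% higher and 1.73% lower. By unadjusted p under 0.05, 2 were higher (Myc and Cks1b) and 6 lower (Ccnd1, Ccnd2, Mcm4, Ccnb1, Cdkn2c and Btg1), against 20.2% of all probe sets, 8.75% higher and 11.5% lower. Second probe sets did not show the differences of Ccnb1 (means of 5.35 in DU and 5.31 in HU) and Cks1b (6.00 in DU and 6.15 in HU). No B-statistic was above 0 (0 of 42, against 1.82% of all probe sets). The median was -0.06, against -0.02 for all probe sets. Groups did not overlap for 3 genes higher and 8 lower in DU, against 29.4% of all probe sets, 12.5% higher and 16.9% lower. In DT vs. HU 1 gene rose (Cks1b) and 2 fell (Ccnd2 and Mcm4), where 1.32% of all probe sets were called, 0.756% higher and 0.561% lower. All 3 also had a B-statistic above 0 (1.18% of all probe sets). By unadjusted p under 0.05, 1 was higher and 7 were lower, against 16.6% of all probe sets, 7.97% higher and 8.6% lower. The median was -0.01, and groups did not overlap for 3 genes higher and 8 lower in DT, against 21.1% of all probe sets, 9.62% higher and 11.4% lower. These comparisons share the HU pools, as DT vs. DU and DU vs. HU share the DU pools.

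A wider list of cell cycle genes was read in the same way. Of 177 listed genes for replication factors, checkpoints, the retinoblastoma and E2F families, the spindle and chromosome structure, 112 were measured. In DT vs. DU 1 rose and 0 fell, with a median of -0.02, where 1.12% of all probe sets were called. By unadjusted p under 0.05, 7 were higher and 4 lower in DT vs. DU. Of all probe sets the share was 9.89%, 5.29% higher and 4.59% lower. In HT vs. HU 0 were called by limma. There 1 was higher and 2 were lower by unadjusted p under 0.05, against 5.41% of all probe sets, 2.65% higher and 2.77% lower. The gene that rose in DT was Nme1, a nucleoside diphosphate kinase, with 9.01, 8.93 and 8.98 in DT and 8.38, 8.43 and 8.35 in DU, and with 8.80, 8.84 and 9.13 in HT and 8.68, 8.77 and 8.90 in HU. Nme1 rose by 0.58 log2 units in DT vs. DU (adjusted p = 0.00532) and fell 1.31-fold in DU vs. HU (adjusted p = 0.0372), and all DU pools lay below all pools of the other groups. The next lowest adjusted p in DT vs. DU belonged to Smc3 of the cohesin ring (-0.27, 0.145), the ubiquitin-conjugating enzyme Ube2s (0.31, 0.146) and Pole, the catalytic subunit of DNA polymerase epsilon (-0.29, 0.252).

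In DU vs. HU 2 of these 112 genes rose and 1 fell, where 3.2% of all probe sets were called. By unadjusted p under 0.05, 17 were higher and 9 lower, against 20.2% of all probe sets, 8.75% higher and 11.5% lower. Bub3, a spindle checkpoint protein, rose 1.45-fold (adjusted p = 0.00551), with 8.08, 8.05 and 8.12 in DU and 7.51, 7.53 and 7.61 in HU. Smc3 rose by 0.32 log2 units (adjusted p = 0.0364), with 6.73, 6.87 and 6.68 in DU and 6.45, 6.46 and 6.40 in HU. For both genes the DU pools lay above all DT pools as well, at 7.97, 7.69 and 8.04 for Bub3 and 6.44, 6.56 and 6.45 for Smc3. Rbx1, the RING subunit of cullin ubiquitin ligases, followed, 1.58-fold higher in DU without passing the test (adjusted p = 0.0579). In DT vs. HU 1 gene rose, where 1.32% of all probe sets were called. It was Pold4, a subunit of DNA polymerase delta (1.43-fold, limma adjusted p = 0.0373). By unadjusted p under 0.05, 11 were higher and 2 lower there, against 16.6% of all probe sets, 7.97% higher and 8.6% lower. In the interaction limma called 0, against 0.422% of all probe sets. By unadjusted p under 0.05, 4 were higher and 7 lower, against 8.75% of all probe sets, 4.97% higher and 3.78% lower.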

How the data were processed

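Total RNA of whole rat pancreas, pooled from 3 rats per array, was hybridized to 12 RAE230-A arrays. The authors made the deposited log2 values by robust multi-array averaging (RMA) in the affy package, of a version not given in the sources used here, which normalizes between arrays and so removes any change common to most genes. The deposited array records, of another unit, gave only scan day and chip lot. Titles gave the groups. The array has 15923 probe sets. Without 57 control probe sets, 15866 were tested, of which 12783 had 1 gene symbol, 312 several and 2771 none. With limma 3.58.1 in R 4.3.3, 1 mean was fitted per group, the 4 groups sharing 1 estimate of the spread, for 5 contrasts with Benjamini-Hochberg adjustment over all probe sets. Calls took adjusted p under 0.05. The study's B-statistic (prior proportion 0.01) was an alternative. The fit was tested on simulated data. Per-array values were given for genes called in any contrast, up to 3 per role with the lowest p in DT vs. DU, and the usual proliferation markers, and up to 4 other cell cycle genes were named per comparison. Dim probe sets were those with a mean under the 40th percentile. The precision is limited by the 3 pools per group. The members and lists were chosen with earlier results of these data known. Alternatives were other scalings, filters, blocks, probe set choices and leaving out each array.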

Additional observations from a re-analysis of the deposited data

Results flagged for a closer look

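Ccnd1 has 3 probe sets, and 1 that was not used above, because its mean signal was not the highest, gave a difference in DT vs. HU past the threshold: its log2 values were 5.10, 5.36 and 5.82 in DT and 6.08, 6.07 and 6.51 in HU, a difference of -0.79 (1.73-fold lower in DT, limma adjusted p = 0.0455). The other unused probe set gave -0.53 (adjusted p = 0.0542) and the one used -0.39 (adjusted p = 0.123). All 3 had the same sign in DT vs. HU.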

How the results depend on the processing

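In DT vs. DU, 0 genes were called, against 1 with quantile normalization, without dim probe sets, with chip lot as a block and, chosen after seeing the data, without the arrays of chip lot 3, 2 with scan day as a block (Ccnd2 and Myc), and 0 to 1 when an array was left out (1 without DT3). Every such call was lower in DT. In DU vs. HU, 2 genes were called, against 1 without dim probe sets or without chip lot 3 (Myc), 1 in a fit on those groups alone (Cks1b, with Myc and Mcm4 lost), 0 with scan day or chip lot as a block or by B-statistic, and 0 to 1 when an array was left out (Myc without DU3, Ccnd2 without HU2). In DT vs. HU, 3 were called, against 0 in a fit on those groups alone or with scan day as a block, 1 with chip lot as a block, and 1 to 3 when an array was left out. In HT vs. HU and the interaction the count stayed at 0 under every alternative run.

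The median over the genes was -0.049 in HT vs. HU without dim probe sets, -0.13 without dim probe sets and -0.14 with scan day as a block in DU vs. HU, and -0.064 with scan day and -0.038 with chip lot as a block in DT vs. HU. In the interaction it was 0.028 without dim probe sets, 0.055 with scan day as a block, 0.047 without chip lot 3, and -0.027 to 0.030 when an array was left out. The cause was not tested. Of the values for single genes, 0 changed sign with a call, 38 lost and 11 gained a call, 123 moved by over the spread and 3533 did neither.

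Replicate numbers did not clearly pair the pools. Same-numbered pools correlated at -0.29 to 0.31 in their deviations from the group means, over 0.1 in 5 of 18 pairs. Pools of different number correlated at -0.36 to 0.28, over 0.1 in 10 of 36 pairs. Of the 12 arrays, 6 correlated best with an array of their own number. Replicate number overlaps in part with batch, since DT3, DU3 and HT3 were the arrays of chip lot 3. With the replicate block, 1 gene was called in DT vs. DU (Ccnd2, adjusted p = 0.0440). Of the 42 genes, 15 lay under the 40th percentile of signal, and 6 under the 10th, where differences are compressed.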
